A study of Mus musculus with 23 samples.

Results

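The genes described here were 9 components and receptors of the complement system, taken by symbol from the 35322 genes listed for the lung: C1qa, C1qb and C1qc, the chains of the recognition molecule C1q, the convertase components C2, C3, C4b and Cfb, and the anaphylatoxin receptors C3ar1 and C5ar1. All 9 were found, and all 9 passed the filter on low values, at least 0.5 RPM (reads per 1000000 mapped) in at least 4 of the 23 libraries, that 16795 genes passed. RNA-Seq was performed on lung of 23 BALB/c offspring aged 13 weeks, labelled female, of dams that received PM2.5 or saline intranasally before mating, through gestation and until weaning. Sham (n = 7) and PM (n = 7) were offspring of saline and PM2.5 dams without challenge by ovalbumin (OVA). Sham-OVA (n = 5) and PM-OVA (n = 4) were offspring of the same kinds of dams. They were sensitised to OVA with alum and then given aerosolised OVA, which induces allergic airway disease (AAD). The methods of the study describe sensitisation for each offspring and name only the aerosol as different in controls. Whether Sham and PM were sensitised is therefore not clear. The control aerosol is saline in the methods of the study and PBS in the labels, and the lobe is the right lower in the methods and RML in the labels. No label says which offspring shared a litter, and the lungs had been through a methacholine test and lavage before collection, so that cells washed from the airspaces were in part removed.

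Complement is a cascade of plasma and tissue proteins that tags particles, recruits leucocytes and punctures membranes. C1q starts the classical pathway, in which C4 and C2 are cleaved into the enzyme that cuts C3, and factor B (Cfb) forms the corresponding enzyme of the alternative pathway. The fragments C3a and C5a signal through C3ar1 and C5ar1 on leucocytes and other cells. The liver secretes most of the plasma proteins, whereas C1q is made mainly by tissue macrophages and dendritic cells, and C3 and factor B are also made by lung epithelium. C3a and its receptor are known to promote airway hyperreactivity in mouse models of asthma.

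By limma, OVA challenge raised 7 of the 9 genes and lowered 1 in each cohort. Of all genes tested, 20.6% were higher and 47.5% lower in Sham and 20.1% and 45.2% in PM offspring. By limma without a correction for transcript length, the C1q chains rose most. They rose by 7.64-fold (C1qb) to 15.1-fold (C1qa) in Sham offspring and by 4.66-fold to 10.2-fold in PM offspring. C3ar1 and C3 rose 4.50-fold and 4.23-fold in Sham and 2.78-fold and 3.26-fold in PM offspring, and Cfb and C2 by less than 2.00-fold. C4b fell, though not in PM-OVA replicate 1, and in PM offspring its fall was not called by edgeR. C5ar1 did not pass the test. Developmental PM2.5 exposure alone changed none of the 9 at an adjusted p under 0.05. A difference between the cohorts in the response to OVA was called for none of them by limma. When libraries were weighted it was called for 3 of the 9, near the share of all genes called there (27.5%).

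The depth of the libraries and 3 libraries that stood apart bear on these values. Between 13089691 and 17393579 reads fell on genes in the saline libraries and between 2298645 and 12355561 in the OVA libraries, with under 6000000 in replicate 3 of Sham-OVA and in replicates 3 and 4 of PM-OVA. In these 3 libraries the genes in the top quartile of transcript length lay furthest under the saline mean, by medians of 1.33 to 1.70 on the log2 scale, against 0.41 to 0.97 in the other OVA libraries and at most 0.13 in the saline libraries. Over all genes the log2 fold changes after OVA had medians of -0.48 (Sham) and -0.43 (PM offspring), and 30.2% and 30.8% of all called genes were higher, compared with 48.5% and 49.3% after quantile normalisation, which moved that median to -0.05 and -0.02. Sham replicate 1 had 0.289 RPM of Xist and 54.0 RPM of the Y-linked Eif2s3y, which was at 0 in the other 22 libraries, so that 1 library labelled female did not match a female. The log2 fold changes below are differences of log2(RPM + 0.5) in a limma fit of the 2 groups named, with Benjamini-Hochberg (BH) adjustment over 16795 genes and a call at an adjusted p under 0.05. They understate the changes of genes at low RPM.

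The 3 C1q genes lie side by side on the minus strand of chromosome 4 (GRCm38), C1qb at 136880129 to 136886187, C1qc at 136889804 to 136893065 and C1qa at 136895917 to 136898803. C3 is on chromosome 17 at 57203970 to 57228136, and C3ar1 is on chromosome 6 at 122847138 to 122856161. RefSeq promoters on GRCm38.p6 were matched for 5 of the 9 genes (C1qb, C1qc, C3, C3ar1 and C5ar1), and the stretches of the 4 that rose are shown because these genes rose together after OVA. They lie before the start site in both RefSeq and GENCODE, at chr4:136886201-136886450, chr4:136893066-136893164, chr17:57228137-57228386 and chr6:122856162-122856407, all on the minus strand and written 5′ to 3′, with capitals for letters that match a motif.
C1qb: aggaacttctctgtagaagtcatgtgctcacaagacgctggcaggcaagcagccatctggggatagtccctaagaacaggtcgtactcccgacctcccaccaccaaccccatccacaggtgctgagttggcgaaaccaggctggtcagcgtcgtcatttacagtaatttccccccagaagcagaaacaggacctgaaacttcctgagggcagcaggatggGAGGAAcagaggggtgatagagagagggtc
C1qc: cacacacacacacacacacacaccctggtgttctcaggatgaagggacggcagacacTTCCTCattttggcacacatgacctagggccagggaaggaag
C3: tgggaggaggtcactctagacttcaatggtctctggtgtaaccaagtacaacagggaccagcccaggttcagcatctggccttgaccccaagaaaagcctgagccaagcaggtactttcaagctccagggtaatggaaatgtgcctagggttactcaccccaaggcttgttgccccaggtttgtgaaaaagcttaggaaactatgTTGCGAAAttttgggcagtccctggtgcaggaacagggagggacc
C3ar1: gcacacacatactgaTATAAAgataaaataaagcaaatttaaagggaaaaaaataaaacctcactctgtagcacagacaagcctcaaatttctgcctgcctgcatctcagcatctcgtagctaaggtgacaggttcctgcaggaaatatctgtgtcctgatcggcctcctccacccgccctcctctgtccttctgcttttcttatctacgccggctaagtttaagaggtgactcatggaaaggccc

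The motifs were searched on both strands in the 250 bases before each of 32851 RefSeq starts. The core of PU.1, a myeloid factor, GAGGAA, was matched 30 bases before the start of C1qb and, on the other strand, 193 bases before that of C1qc, and 23.3% of all promoters held it. TTGCNNAA of the C/EBP factors was matched in the promoter of C3 (9.56% of all promoters), and TATAAA in that of C3ar1 (12.4%), 235 bases before the start. An NF-kappaB match lay in the C1qc promoter between the RefSeq and the GENCODE start (3.90% of all promoters). TTCNNNGAA of the STAT factors (7.02%), TGCTGAC of MAF (3.81%) and the motifs of STAT6 (5.85%) and of the IRF factors (2.98%) were in none of the 5 promoters, and the C5ar1 promoter held none of the motifs. These matches are descriptions of the letters in the windows.

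**Figure D1:**
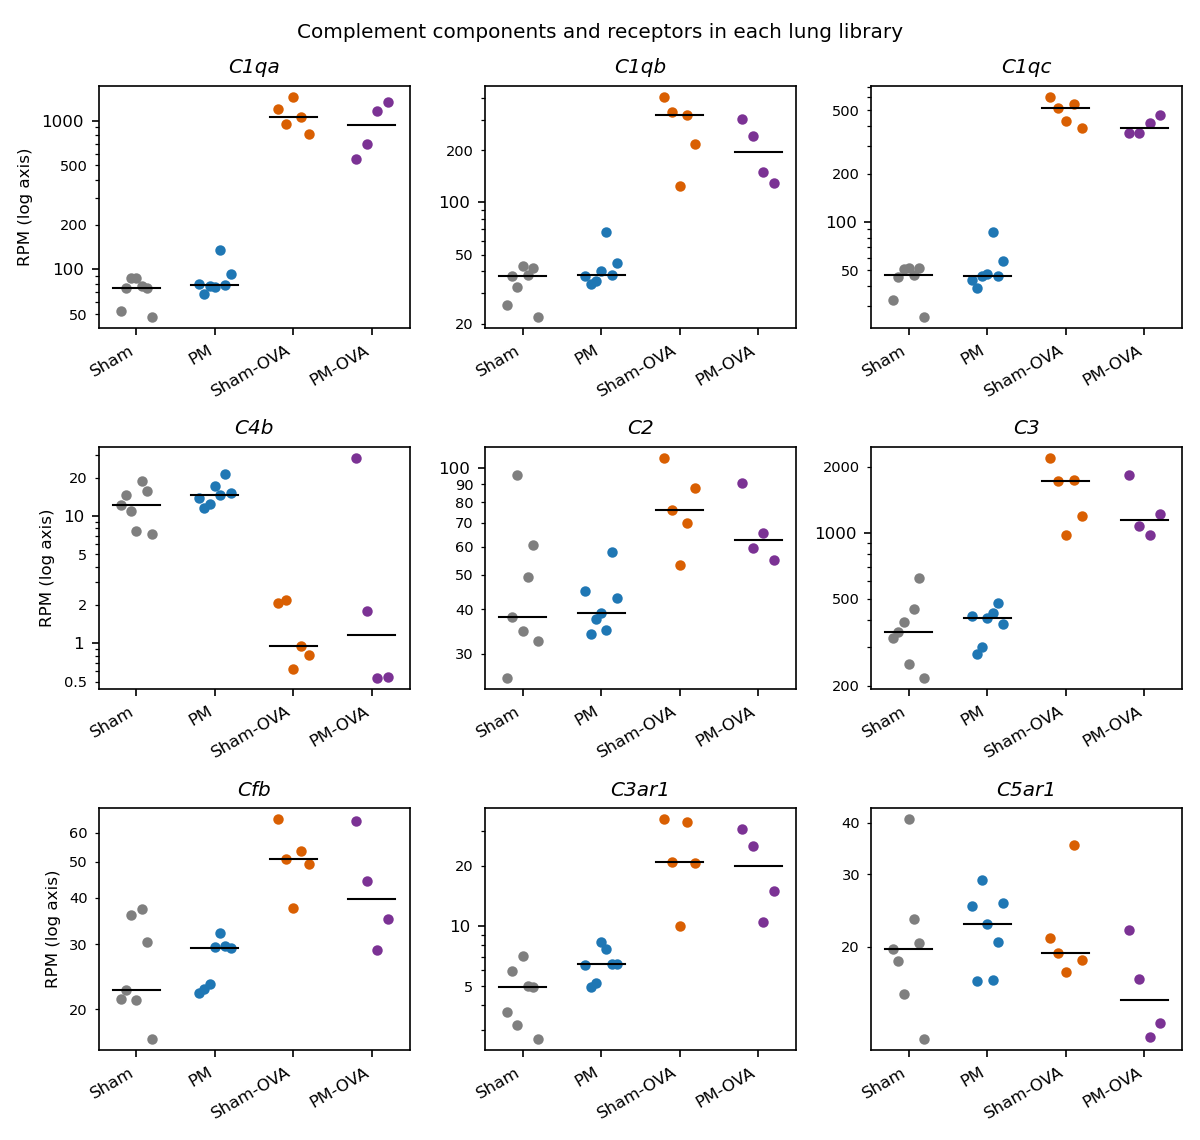
RPM (log axis) of the 9 genes in each library of Sham, PM, Sham-OVA and PM-OVA, 1 point per library in the order of the replicate numbers, with the median as a line. All OVA libraries lie above all saline libraries for C1qa, C1qb, C1qc, C3 and C3ar1, while C4b is low in all OVA libraries but PM-OVA replicate 1 and the 4 groups overlap for C5ar1.

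C1q is a large molecule assembled from equal numbers of A, B and C chains, so that the 3 transcripts serve 1 product. In Sham, C1qa lay between 47.8 and 88.0 RPM (median 75.0), and the 5 Sham-OVA libraries had 1187, 941, 1439, 1050 and 810 RPM. C1qb lay between 21.8 and 43.2 RPM (median 37.5) in Sham and at 406, 334, 124, 318 and 217 RPM in Sham-OVA. C1qc lay between 25.5 and 51.9 RPM (median 46.7) in Sham and at 604, 518, 429, 547 and 388 RPM in Sham-OVA. For each chain the lowest Sham-OVA library was well above the highest Sham library, and Sham-OVA replicate 3, the shallowest library, was at once the highest for C1qa and the lowest for C1qb. The log2 fold changes were 3.91 (SE 0.19) for C1qa, 2.93 (SE 0.27) for C1qb and 3.52 (SE 0.19) for C1qc (limma, adjusted p = 1.66e-09, 4.55e-07 and 6.08e-09).

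In PM, C1qa lay between 68.2 and 134 RPM (median 78.9), and the 4 PM-OVA libraries had 549, 694, 1159 and 1328 RPM. C1qb lay between 33.7 and 67.1 RPM (median 37.9) in PM and at 301, 243, 150 and 130 RPM in PM-OVA. C1qc lay between 38.6 and 87.0 RPM (median 46.1) in PM and at 362, 359, 413 and 467 RPM in PM-OVA. The groups again did not overlap for any chain. PM replicate 5 was the highest PM library for all 3, and it stood apart in other markers, with sums of 1513 RPM for capillary endothelium (4213 to 5005 in the other PM libraries), 786 RPM for the monocyte list (1729 to 1962) and 32545 RPM for alveolar type 2 cells (17589 to 20271). Most of the monocyte sum was Ace, at 631 RPM in PM replicate 5 and 1527 to 1717 RPM in the other PM libraries. Ccr2 (48.5 RPM) and Plac8 (17.4 RPM) lay within the range of the other PM libraries, and Treml4 (3.70 RPM) just below it. The part of these sums in the C1q levels was not tested. Without PM replicate 5 the log2 fold changes after OVA were 3.47 (C1qa), 2.33 (C1qb) and 3.10 (C1qc). The log2 fold changes were 3.36 (SE 0.25) for C1qa, 2.22 (SE 0.24) for C1qb and 2.97 (SE 0.20) for C1qc (limma, adjusted p = 1.55e-06, 3.05e-05 and 6.87e-07). Under the stricter threshold of the study (adjusted p under 0.000001 and log2 fold change above 1), which 1.98% of all genes passed as higher in Sham and 0.262% in PM offspring, all 3 chains were called in Sham offspring and C1qc alone in PM offspring, while 2.53% and 0.0238% of all genes passed it as lower and none of the 9 did. These counts are of the limma fits and depend on the tool. With DESeq2 on the recovered reads, 6 of the 9 passed as higher (not C2 or C5ar1) and C4b as lower in Sham offspring, where 13.7% and 15.0% of all genes did, and 7 as higher and none as lower in PM offspring, where 10.5% and 6.25% of all genes did.

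Whether the chains moved in step was asked from the ratio of C1qa to C1qb in each library, 2 transcripts of nearly equal length (1040 and 1088 bases). The RPM ratio was 2.11 ± 0.28 (SD, n = 7) in Sham and 2.06 ± 0.09 (SD, n = 7) in PM. It was 2.92, 2.82, 11.6, 3.30 and 3.74 in Sham-OVA and 1.82, 2.86, 7.74 and 10.2 in PM-OVA. The 3 highest ratios were those of the 3 libraries with under 6000000 reads. In Sham offspring the log2 ratio of RPM + 0.5 was higher by 0.98 after OVA, with all 5 Sham-OVA libraries above all Sham libraries (two-sided exact permutation test, p = 0.00126, the smallest these groups allow, BH over 12 ratio tests 0.00758), and without Sham-OVA replicate 3 it was higher by 0.61 (adjusted p = 0.0182). In PM offspring it was higher by 1.14 (exact permutation test, p = 0.0242, adjusted p = 0.0727), by 1.57 without PM-OVA replicate 1 (adjusted p = 0.025), and by 0.16 without PM-OVA replicates 3 and 4 (adjusted p = 0.50). C1qc to C1qb moved the same way, from 1.27 ± 0.13 (SD, n = 7) in Sham to between 1.49 and 3.45 in Sham-OVA, but Sham replicate 3 (1.56) lay above Sham-OVA replicates 1 and 2 (1.49 and 1.55). It was 1.15 to 1.30 in PM and 1.20, 1.48, 2.76 and 3.60 in PM-OVA, with replicate 1 inside the PM range. The part of depth or RNA quality in these ratios was not tested.

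**Figure D2:**
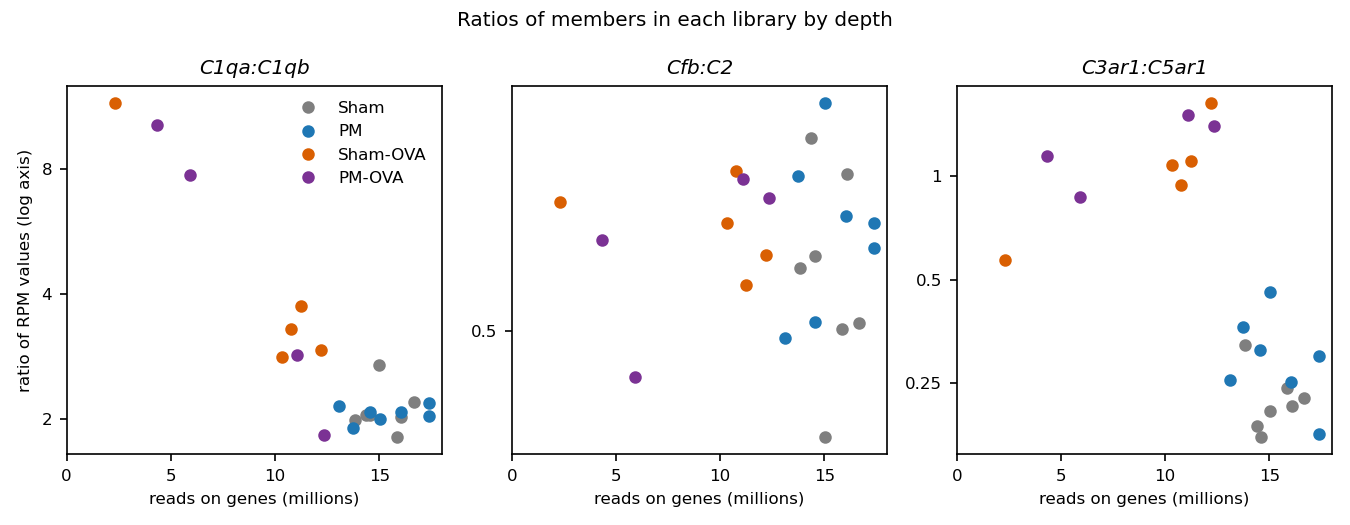
Ratio of RPM values (log axis) of C1qa to C1qb, Cfb to C2 and C3ar1 to C5ar1 in each library against the reads counted on genes (in units of 1000000), 1 point per library, coloured by group. The OVA libraries with under 6000000 reads have C1qa to C1qb ratios of 7.74 to 11.6, against 1.82 to 3.74 in the other OVA libraries. The C3ar1 to C5ar1 ratios of all OVA libraries lie above those of all saline libraries. Every OVA library has fewer reads than every saline library, so that depth and OVA cannot be told apart here.

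Genes that mark macrophages did not move as 1 group beside the C1q chains. Of 10 markers of interstitial macrophages, 7 rose and 1 fell after OVA in Sham offspring and 6 rose and 1 fell in PM offspring, with Trem2 up by 3.49 and 3.24, Ms4a7 up by 2.40 and 2.31 and Lyve1 down by 2.79 and 2.44 on the log2 scale in Sham and PM offspring. Their summed level was 1091 to 1850 RPM in the saline libraries and 1187 to 2765 RPM in the OVA libraries. Most of this level was Apoe and Lyve1, so that it says little about the other markers. Apoe had 616 to 1163 RPM in the saline and 851 to 2246 RPM in the OVA libraries, and Lyve1 172 to 688 and 14.6 to 209 RPM. The 6 markers shared by macrophages and monocytes summed to 347 to 559 RPM in the saline libraries and to 133 to 575 RPM in the OVA libraries, with Cd68 up by 1.61 and 1.36 and Mertk down by 2.11 and 2.23. C1qb was 0.063 to 0.127 of that sum in the saline libraries and 0.524 to 0.937 of it in the OVA libraries. The largest part of that sum in the saline libraries was Lyz2, which fell by 1.81 and 1.71 on the log2 scale. It had 160 to 322 RPM in the saline libraries and 19.0 to 147 RPM in the OVA libraries. None of these 16 markers was at 0 in all libraries of a group. Here and below, more cells of a type and more RNA per cell cannot be told apart in lung homogenate.

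C3 is the protein on which all complement pathways meet. It had between 217 and 623 RPM in Sham (median 353) and 2188, 1717, 976, 1738 and 1190 RPM in Sham-OVA. In PM it had between 280 and 477 RPM (median 410), and in PM-OVA 1835, 1068, 979 and 1222 RPM. The OVA libraries were all higher than the saline libraries of their cohort. C3 rose by 2.08 (SE 0.26) and 1.70 (SE 0.20) on the log2 scale in Sham and PM offspring (limma, adjusted p = 8.58e-06 and 5.23e-05).

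C2 and Cfb are the catalytic subunits of the classical and alternative C3 convertases and lie next to each other on the minus strand of chromosome 17, at 34862604 to 34898265 and 34856374 to 34862518. C2 had between 25.6 and 95.3 RPM in Sham (median 38.1) and 107, 76.2, 53.4, 70.0 and 87.5 RPM in Sham-OVA. The groups overlapped, since Sham replicate 3, which also had the highest summed level of the 5 mesothelial markers in any library (1071 RPM, against 316 to 795 in the other Sham libraries), exceeded 4 of the 5 Sham-OVA libraries. C2 had between 34.1 and 57.9 RPM in PM (median 39.1) and 90.6, 59.4, 65.5 and 55.0 RPM in PM-OVA, of which 3 were above all PM libraries. C2 rose by 0.80 (SE 0.28) and 0.69 (SE 0.18) on the log2 scale (limma, adjusted p = 0.0198 and 0.00445), and in Sham offspring the call was lost without Sham-OVA replicate 1 (0.68, adjusted p = 0.0545).

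Cfb had between 16.6 and 37.4 RPM in Sham (median 22.5) and 65.2, 50.8, 37.6, 53.5 and 49.4 RPM in Sham-OVA, with all 5 just or well above Sham. It had between 22.1 and 32.0 RPM in PM (median 29.2) and 64.4, 44.5, 28.9 and 35.0 RPM in PM-OVA, with PM-OVA replicate 3 inside the PM range. Cfb rose by 0.97 (SE 0.21) and 0.62 (SE 0.20) on the log2 scale (limma, adjusted p = 9.20e-04 and 0.0168), and the latter was 0.41 without PM-OVA replicate 1 (adjusted p = 0.0443) and 0.34 with array weights (adjusted p = 0.173). The ratio of Cfb to C2 was 0.598 ± 0.157 (SD, n = 7) in Sham, 0.663 ± 0.145 (n = 7) in PM, 0.662 ± 0.078 (n = 5) in Sham-OVA and 0.635 ± 0.137 (n = 4) in PM-OVA. None of its 4 comparisons passed the exact permutation test (adjusted p from 0.688 to 0.857). A transcript annotated across both genes, Gm20547, had 26.4 to 89.0 RPM, and how reads were divided among the 3 is not given in the sources used here.

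C4b, the mouse gene for C4, went the other way. It had between 7.18 and 18.8 RPM in Sham (median 12.1) and 2.08, 2.18, 0.621, 0.956 and 0.803 RPM in Sham-OVA, all below Sham, and the lowest of these rested on 2 reads. It had between 11.5 and 21.4 RPM in PM (median 14.7) and 28.5, 1.78, 0.531 and 0.545 RPM in PM-OVA. PM-OVA replicate 1 was above all PM libraries, while the other 3 were below all of them. The log2 fold changes were -2.84 (SE 0.30) in Sham and -2.40 (SE 0.71) in PM offspring (limma, adjusted p = 1.65e-06 and 0.0101). Without PM-OVA replicate 1 the latter was -3.55. It was no longer called without PM-OVA replicates 3 and 4 (-0.92, adjusted p = 0.256) or by edgeR on the recovered reads (-0.68, adjusted p = 0.415), and DESeq2 gave -0.82 and no adjusted p. C4a, a near-identical neighbour on chromosome 17, had at most 0.156 RPM, and reads common to both copies could have been assigned to either.

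Of the 16 complement genes called lower in PM offspring (C4b and 15 of the longer list below), 13 were highest of the 4 PM-OVA libraries in replicate 1, as were 80.8% of all 7589 genes called lower, so that this order was not particular to complement. That library had the deepest sequencing of any OVA library (12355561 reads) and the smallest shift of long transcripts (-0.41). Its 6 fibroblast markers summed to 1380 RPM, against 563 to 970 RPM in the other PM-OVA libraries and 1222 to 2016 RPM in PM. The part of these in the level of C4b was not tested.

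**Figure D3:**
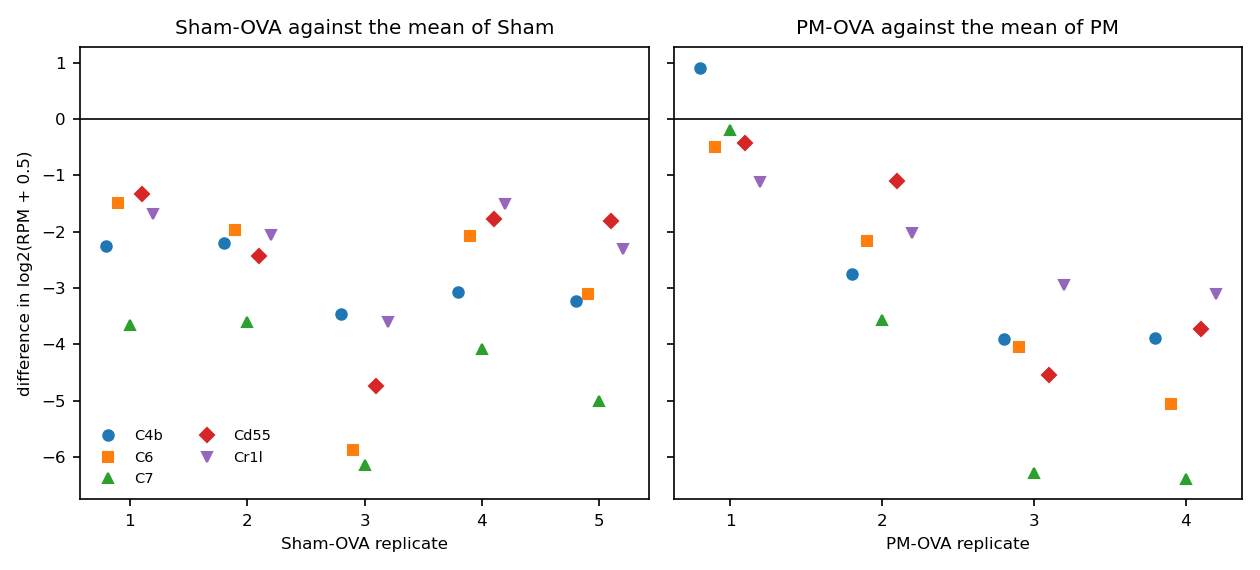
Difference in log2(RPM + 0.5) of each OVA library from the mean of the saline libraries of its cohort, for C4b and 4 other complement genes called lower in both cohorts, chosen after their values were seen. In PM-OVA replicate 1 all 5 lie nearer to the saline mean than in any other PM-OVA library, or above it, as C4b does.

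The receptors for C3a and C5a differed. C3ar1 had between 2.71 and 7.10 RPM in Sham (median 4.94) and 34.3, 20.8, 9.94, 33.2 and 20.6 RPM in Sham-OVA. It had between 4.96 and 8.30 RPM in PM (median 6.42) and 30.6, 25.0, 10.5 and 14.9 RPM in PM-OVA. No OVA library overlapped the saline libraries, and those with under 6000000 reads were the lowest of their groups. C3ar1 rose by 2.17 (SE 0.30) and 1.48 (SE 0.27) on the log2 scale (limma, adjusted p = 2.30e-05 and 5.41e-04). C3ar1 has a long transcript of low GC content (4305 bases, 43.0%). With the trend of each library with length and GC content removed it rose by 3.21 (Sham) and 2.53 (PM offspring). Over the alternative fits C3ar1 ranged from 2.01 to 3.21 in Sham and from 1.05 to 2.53 in PM offspring. C1qb ranged from 2.42 to 3.43 and from 1.67 to 2.70, so that the ranges of both genes overlapped.

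C5ar1, carried mainly by neutrophils and macrophages, had between 11.9 and 40.8 RPM in Sham (median 19.7) and 21.0, 19.3, 17.4, 35.4 and 18.6 RPM in Sham-OVA. It had between 16.6 and 29.1 RPM in PM (median 22.8) and 22.0, 16.7, 12.1 and 13.1 RPM in PM-OVA. The groups overlapped in both cohorts. The highest Sham and Sham-OVA libraries, both replicate 4, also had the highest summed level of 9 neutrophil markers (722 RPM against at most 225 in the other Sham libraries, and 810 RPM against at most 310 in the other Sham-OVA libraries). After OVA it differed by 0.10 on the log2 scale in Sham offspring (95% interval -0.46 to 0.66, limma, adjusted p = 0.747) and by -0.48 in PM offspring (-0.93 to -0.03, adjusted p = 0.0561). In PM offspring it was called lower without PM replicate 2 (-0.55, adjusted p = 0.0404), PM replicate 5 (-0.55, adjusted p = 0.0358) or PM-OVA replicate 1 (-0.64, adjusted p = 0.0102). With array weights it was also called lower there (-0.75, adjusted p = 0.0243). Measured from the median of all genes, the difference was 0.58 in Sham and -0.05 in PM offspring.

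The ratio of C3ar1 to C5ar1 rose in both cohorts. The RPM ratio was 0.225 ± 0.049 (SD, n = 7) in Sham and 0.303 ± 0.090 (n = 7) in PM. It was 1.63, 1.07, 0.571, 0.939 and 1.11 in Sham-OVA and 1.39, 1.5, 0.868 and 1.14 in PM-OVA. The OVA and saline libraries did not overlap in either cohort. The log2 ratio was higher by 2.07 in Sham offspring (exact permutation test on both sides, p = 0.00126, adjusted p = 0.00758) and by 1.96 in PM offspring (p = 0.00303, adjusted p = 0.0121), each the smallest p the groups allow. Without the libraries under 6000000 reads it was higher by 2.27 (adjusted p = 0.0182) and 2.22 (adjusted p = 0.111, with 2 PM-OVA libraries left).

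**Figure D4:**
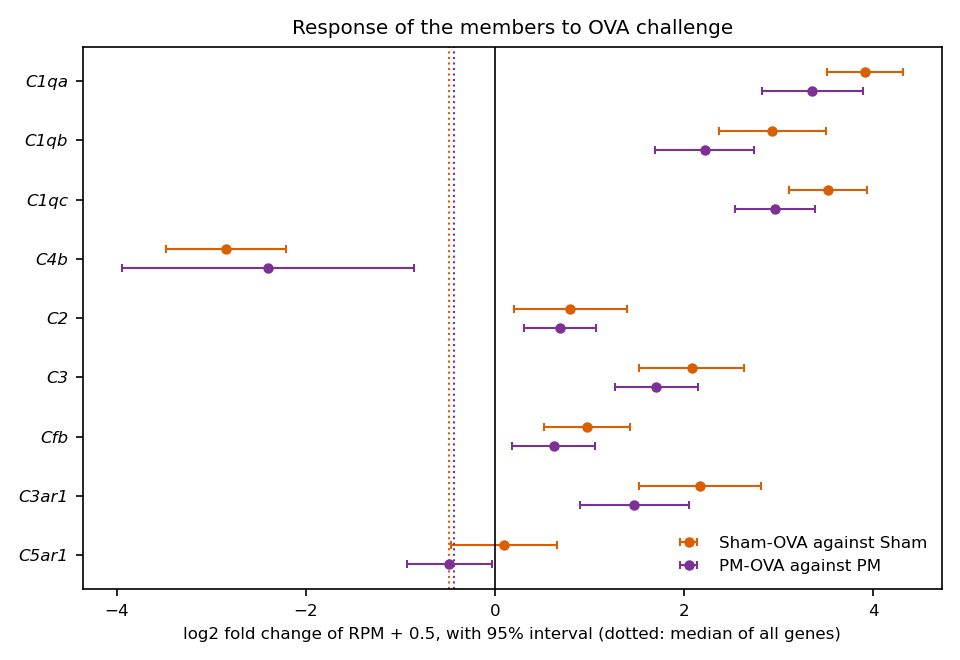
Log2 fold change of RPM + 0.5 after OVA challenge for the 9 genes, with 95% intervals from limma, in Sham (n = 7 and 5) and PM offspring (n = 7 and 4). The dotted lines mark the medians of all genes tested, -0.48 and -0.43, and the intervals of 7 genes lie above 0, that of C4b below 0, and that of C5ar1 across 0 in Sham offspring.

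Set against all genes, 20.6% of those tested were called higher and 47.5% lower after OVA in Sham offspring, where 7 and 1 of the 9 genes were, and 20.1% were higher and 45.2% lower in PM offspring, where 7 and 1 of the 9 were. All OVA libraries exceeded all saline libraries for 6 of the 9 genes in Sham offspring (C1qa, C1qb, C1qc, C3, Cfb and C3ar1) and for 13.2% of all genes, and for 5 of the 9 in PM offspring (not Cfb) and 13.3% of all genes. All OVA libraries were below all saline libraries for C4b alone of the 9 in Sham offspring and for 35.0% of all genes, and for none of the 9 in PM offspring and 28.6% of all genes. Over the 9 genes the log2 fold changes had medians of 2.08 (Sham) and 1.48 (PM offspring), against -0.48 and -0.43 over all genes tested.

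Developmental exposure was examined without OVA challenge in PM against Sham and with it in PM-OVA against Sham-OVA. None of the 9 genes was called by limma in either, where 0% of all genes were, and at an unadjusted p under 0.05 1 of the 9 passed in the former (731 of all genes) and none in the latter (313 of all genes). DESeq2 called 0 and 1 of all genes, and none of the 9. The member that passed at an unadjusted p in PM against Sham was C3ar1, at 4.66 ± 1.57 RPM (SD, n = 7) in Sham and 6.47 ± 1.20 RPM (n = 7) in PM, a log2 fold change of 0.48 (SE 0.18, unadjusted p = 0.0199, adjusted p = 0.898). Only 2 of the 7 PM libraries were above all Sham libraries. The other 8 differed by -0.10 (C2) to 0.32 (C4b). The ratio of C3ar1 to C5ar1 differed by 0.35 between PM and Sham (exact permutation test, p = 0.0833, adjusted p = 0.20) and, without PM replicate 3, by 0.47 (adjusted p = 0.049).

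In PM-OVA against Sham-OVA the C1q chains differed by -0.28 (C1qa, 95% interval -0.95 to 0.39), -0.41 (C1qb, -1.25 to 0.43) and -0.30 (C1qc, -0.70 to 0.10), C3 by -0.28 (-0.94 to 0.38), C3ar1 by -0.22 (-1.17 to 0.73) and C5ar1 by -0.46 (-1.07 to 0.15). C4b differed by 0.76 (-1.26 to 2.79), which turned to -0.34 without PM-OVA replicate 1. The difference of both OVA responses, tested as an interaction over the 4 groups, called none of the 9 genes and 0% of all genes with limma, while 854 of all genes and none of the 9 had an unadjusted p under 0.05, and DESeq2 called 2 of all genes. It was -0.56 (SE 0.32) for C1qa, -0.71 (SE 0.38) for C1qb, -0.56 (SE 0.28) for C1qc and -0.69 (SE 0.42) for C3ar1, a smaller rise in PM offspring, with 95% intervals that all include 0. With array weights, which weigh poorly matching libraries less, 27.5% of all genes were called for the interaction, with a median over all genes of -0.32, and among them were C1qb (-1.12, adjusted p = 0.00903), C3ar1 (-1.35, adjusted p = 0.0104) and C5ar1 (-1.07, adjusted p = 0.0451), so that 3 of the 9 was near the share of all genes. The median log2 fold change of all genes after OVA with these weights was -0.33 in Sham and -0.62 in PM offspring. Without the libraries under 6000000 reads that median was -0.33 and -0.14. Without the libraries under 6000000 reads, 4.29% of all genes and none of the 9 were called, with C1qa nearest to the threshold (-0.95, adjusted p = 0.0582).

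Levels were set side by side per kb of the longest coding transcript. In Sham, C3 (72.7 ± 26.3 RPM per kb, SD, n = 7) and C1qa (69.0 ± 15.2) led, with C1qa above C3 in 4 of the 7 libraries, followed by C1qc (36.1 ± 8.63), C1qb (31.6 ± 7.44), C2 (18.2 ± 9.03), Cfb (9.63 ± 2.93), C5ar1 (8.44 ± 3.66), C4b (2.31 ± 0.790) and C3ar1 (1.08 ± 0.364). The ranges of C1qa and C1qc and of C5ar1 and C4b did not overlap, and all other neighbours in this order overlapped. In Sham-OVA, C1qa (1043 ± 232 RPM per kb, SD, n = 5) was above all others in every library, C1qc (413 ± 73.1) came next, and C3 (304 ± 93.8) and C1qb (257 ± 101) followed with overlapping ranges. C3ar1 (5.52 ± 2.35) moved from last in Sham to above C4b (0.247 ± 0.138), with no overlap. PM-OVA had the same order of means, from C1qa at 896 ± 356 to C4b at 1.46 ± 2.56 RPM per kb (SD, n = 4).

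The genes with profiles nearest to those of the complement genes were found by the root mean square difference of centred log2 values over all 23 libraries, among 16794 other genes. Nearest to C1qb were Slc16a6 (0.285), Itgax (0.325), Tpx2 (0.334), Ms4a7 (0.337) and Acp5 (0.368), and C1qc (0.477) and C1qa (0.761) were in places 52 and 501. Nearest to C3ar1 were Ctss (0.223), a lysosomal protease, Cd74 (0.309), the invariant chain of MHC class II, Clec4a3 (0.325), Cd68 (0.333) and Folr2 (0.341), and C3 came in place 30. Nearest to C3 were Epx (0.364), the eosinophil peroxidase, Prr5 (0.368), Klk4 (0.369), Pdia4 (0.372) and Ctsb (0.374). Epx was at 0 in all saline libraries and at 0.531 to 2.86 RPM in the OVA libraries. The size of its step therefore depends on the 0.5 RPM added before the logarithm. Nearest to Cfb were Ccdc80 (0.187), Tnfsf13b (0.242), Srsf9 (0.255), Dhrs4 (0.261) and Prelid3b (0.262), with its neighbour C2 in place 28 (0.297). Nearest to C5ar1 were Alox5 (0.235), the leukotriene-forming enzyme of leucocytes, Klra2 (0.288), Bloc1s3 (0.289), Cmtm6 (0.295) and Gm10762 (0.298). All these libraries share the step between saline and OVA, so that the distances describe mainly that step and its scatter.

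The rest of the system was followed in a list of 48 other complement genes, of which 37 passed the filter. In Sham offspring 10 of the 37 were higher and 14 lower, and in PM offspring 6 were higher and 15 lower, with a median log2 fold change of -0.24 and -0.38 against -0.48 and -0.43 over all genes tested. Of all genes, 20.6% were higher and 47.5% lower in Sham and 20.1% higher and 45.2% lower in PM offspring, so that these counts lay near the background. Of the 11 genes that did not pass, 3 were at 0 in all libraries, Fcnb and Cd55b among them, and Mbl2, a plasma lectin of the liver, reached 2.09 RPM in Sham replicate 4, where 5 liver markers summed to 190 RPM against at most 9.03 RPM in the other Sham libraries.

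Among the genes that start the classical and lectin pathways, 1 of 8 tested was higher in both cohorts. This was Fcna, a ficolin that binds carbohydrates and is made by macrophages, which had 0.10 to 3.47 RPM in Sham and PM and 48.4, 27.5, 29.5, 22.5 and 30.4 RPM in Sham-OVA and 15.6, 21.6, 21.2 and 33.2 RPM in PM-OVA. All OVA libraries were above all saline libraries, and the log2 fold changes were 4.32 (SE 0.36) and 3.37 (SE 0.31). The proteases that C1q activates were not called, with C1ra at -0.84 and -1.16 and C1s1 at -0.52 and -0.13 in Sham and PM offspring, and without PM-OVA replicate 1 both were called lower in PM offspring (-1.99 and -0.49, adjusted p = 0.00111 and 0.0108). C1s1 was also called lower in Sham offspring without Sham replicate 1 (-0.60, adjusted p = 0.0394) or Sham-OVA replicate 1 (-0.74, adjusted p = 0.00432). Of the genes called lower, Mbl1 (-0.88 and -0.77, both cohorts) and Masp2 (-0.91, Sham offspring) had at most 5.90 RPM in any library. The call of Mbl1 in PM offspring and that of Masp2 were lost when 1 of several libraries was left out (largest adjusted p 0.168 and 0.0594), and that of Mbl1 in Sham offspring with median-of-ratios scaling (-0.58, adjusted p = 0.0778) or quantile normalisation (-0.35, adjusted p = 0.282). Colec10, called lower in both cohorts, had at most 1.27 RPM in Sham and was at 0 in all 5 Sham-OVA libraries. It turned to 0.44 and 0.34 and was not called with the trend with length and GC content removed.

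In the alternative pathway, Cfp, which encodes properdin, the stabiliser of its convertase, rose by 3.18 (SE 0.23) and 2.44 (SE 0.20) on the log2 scale, from 9.44 to 25.1 RPM in all saline libraries to between 66.7 and 186 RPM in the OVA libraries. Cfd, the protease that cleaves factor B, was at -0.28 in Sham offspring and was called lower in PM offspring (-1.47, adjusted p = 0.0195), though not without PM-OVA replicate 2 (-1.12, adjusted p = 0.0725) or 4 (-1.20, adjusted p = 0.068).

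The terminal pathway was split. Hc, which encodes C5, was called higher in Sham offspring (0.70, SE 0.21) and not in PM offspring (0.26, SE 0.21), where it was called with the trend with length and GC content removed (1.36, adjusted p = 1.02e-04). A difference between the cohorts was not called (-0.44, adjusted p = 1.00). C6 and C7, which bind C5b to build the membrane attack complex, fell by 2.91 and 4.50 in Sham and by 2.94 and 4.11 in PM offspring on the log2 scale. C7 had between 60.3 and 177 RPM in the saline libraries, 7.505, 7.75, 0.932, 5.42 and 2.63 RPM in Sham-OVA and 115, 10.7, 1.19 and 1.09 RPM in PM-OVA. C6 was at 0 in Sham-OVA replicate 3, where 3 reads would be 0.932 RPM. Without the 2 shallow PM-OVA libraries, C6 and C7 fell by 1.33 and 1.88 in PM offspring (adjusted p = 0.00987 and 0.0212), and edgeR did not call C7 there (-1.88, adjusted p = 0.0683).

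Of the soluble regulators, Cfi, the protease that inactivates C3b, rose by 2.04 and 1.65 from at most 2.03 RPM, and Clu (clusterin) rose by 0.49 and 0.50, the former not without Sham-OVA replicate 2 (0.45, adjusted p = 0.0527). With the trend with length and GC content removed, Clu was at 0.29 and 0.26 and not called in either cohort. Serping1, the inhibitor of C1r and C1s, was at -0.67 and -0.76, called in both, but in PM offspring not without PM-OVA replicate 3 (-0.64, adjusted p = 0.089) or 4 (-0.47, adjusted p = 0.105), and in Sham offspring at -0.37 without Sham-OVA replicate 3. With median-of-ratios scaling it was called in neither (-0.30 and -0.40, adjusted p = 0.103 and 0.101).

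Of 7 membrane regulators tested, 4 were lower in both cohorts, where 47.5% and 45.2% of all genes were. Cd55, which speeds the decay of convertases, fell by 2.42 and 2.45, Cr1l (Crry), the rodent membrane cofactor, by 2.23 and 2.30, Cd46 by 1.76 and 1.54 and Susd4 by 1.27 and 1.09. Cd59b, an inhibitor of the membrane attack complex, was called higher in Sham offspring (1.18) and was at 0.22 in PM offspring. The neighbouring gene Cd59a was not called in either. Without PM-OVA replicates 3 and 4, Cd55 fell by 0.76 in PM offspring (adjusted p = 0.0069), and Susd4 was no longer called (-0.54, adjusted p = 0.139). With the trend with length and GC content removed, Cd46 was at -0.32 and -0.09 and was not called in either cohort.

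Among 8 other receptors, Itgax, the alpha chain of complement receptor 4, rose by 2.99 (SE 0.24) and 2.67 (SE 0.14), from 17.2 to 34.2 RPM in the saline libraries to between 101 and 266 RPM in the OVA libraries. Its partner Itgb2 (-0.20 and -0.54) and Itgam (0.30 and -0.17), the alpha chain of complement receptor 3, were not called, though Itgam was higher in Sham offspring without Sham-OVA replicate 3 (0.83, adjusted p = 5.58e-04) and Itgb2 lower in PM offspring without PM-OVA replicate 1 (-0.97, adjusted p = 0.00334). C1qbp rose by 1.04 and 0.80. C5ar2, the second receptor of C5a, fell by 1.72 and 1.75 from at most 3.93 RPM, and Cd93, expressed by endothelium and myeloid cells, fell by 1.77 and 1.88 from between 330.5 and 843 RPM to between 104 and 227 RPM. The fall of Cd93 was by 0.66 and 0.79 with the trend with length and GC content removed.

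**Figure D5:**
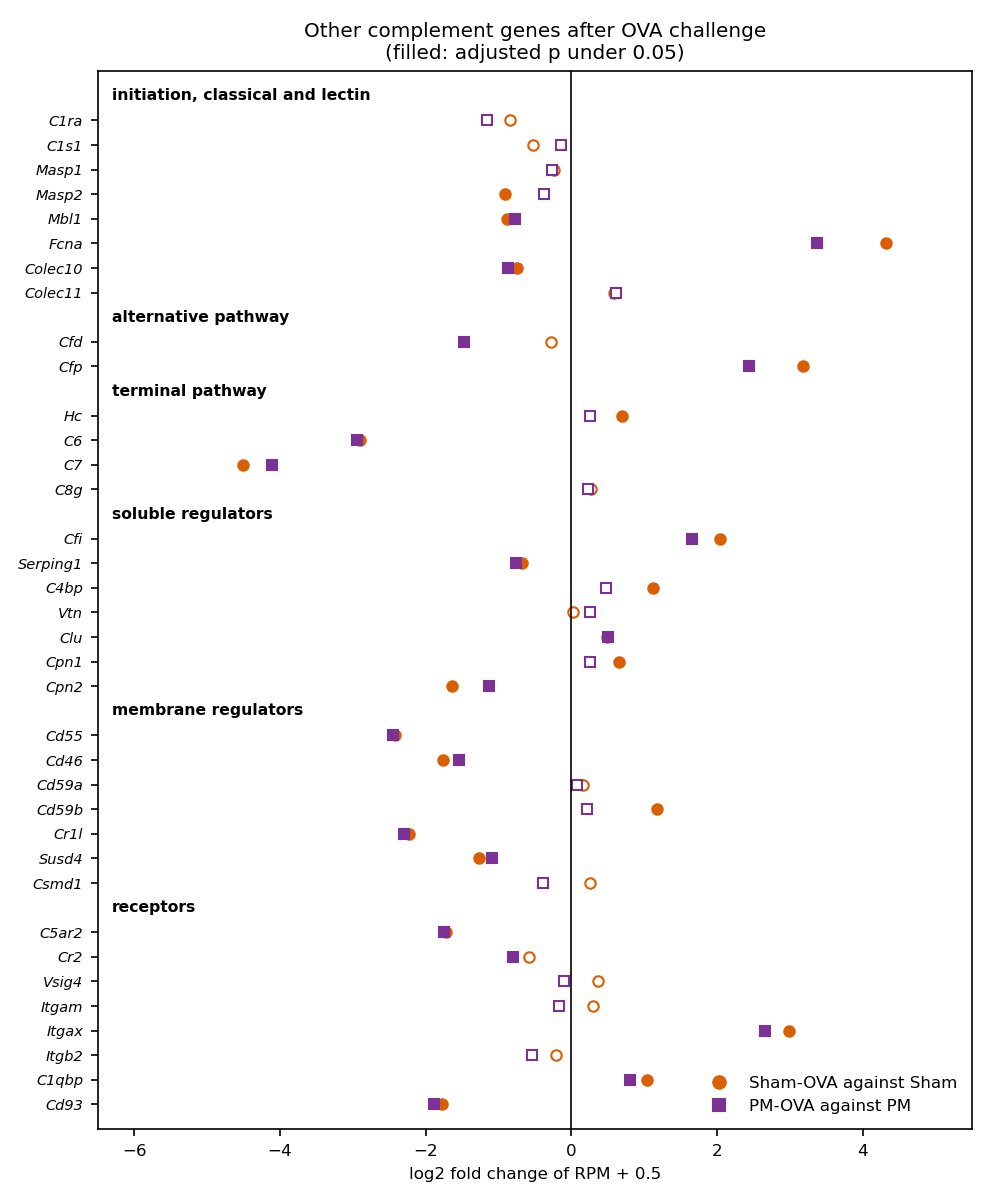
Log2 fold change of RPM + 0.5 after OVA challenge for 36 of the other complement genes that passed the filter, grouped by role, in Sham (circles) and PM offspring (squares), filled where the adjusted p was under 0.05. Fcna, Cfp, Itgax and Cfi lie furthest to the right and C7, C6 and Cd55 furthest to the left in both cohorts.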

How the data were processed

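Lung RNA from 23 offspring was sequenced as single-end reads. According to the methods of the study, the authors used Trimmomatic for trimming, Bowtie2, which does not split reads across introns, for alignment to GRCm38, and SeqMonk for quantification. The annotation and strand setting are not given in the sources used here. The deposited table is named after RPKM, but in each library 100% of values were a whole number times that of 1 read (within 0.1 reads, for values of up to 200 reads), so they were treated as RPM as deposited by the authors, and the reads were recovered. Ptp4a1 is listed 2 times. DNA methylation was not analysed here, and 1 gene of the complement list is counted but not reported here.

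Values were tested as log2(RPM + 0.5) in R 4.3.3 by limma 3.58.1 (mean-variance trend, BH adjustment), separately for each pair of groups, and over all 4 groups for the interaction. Self-tests on simulated data preceded the fits. Ratios were tested with two-sided exact permutation tests (numpy 2.4.6, scipy 1.17.1). Alternatives were pseudocounts, filters, scaling, array weights, replicate blocks, single libraries left out, and, from the recovered reads, edgeR 4.0.16 and DESeq2 1.42.0. Chosen after seeing the data were a fit free of the trend with transcript length (known for 16535 of the genes tested) and GC content, and one without libraries under 6000000 reads. Replicates are separate samples by their labels, but no label gives litters, so p-values measure the spread between these samples, and same-numbered samples were not correlated above 0.1 in every pair, so numbers were not treated as pairs.

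All 9 genes were named, genes of the list of 48 by role, and for 5 genes the 5 most alike. The members and lists were chosen with earlier results of these data known. Coordinates and lengths are from GENCODE M21. Floors of 3 reads cover counting error only.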

Additional observations from a re-analysis of the deposited data

Results flagged for a closer look

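The highest or lowest library of a group was compared with the others by Dixon's test for 48 sets of values (the 9 genes and 3 ratios in the 4 groups), of which chance gives about 1 in 20. It singled out 7. PM replicate 5 was the highest PM library for C1qa (134.1 RPM, next 93.33), C1qb (67.14 RPM, next 44.90) and C1qc (87.03 RPM, next 56.80), and these are 1 observation rather than 3, since the chains share the library. C4b in PM-OVA replicate 1 was 28.49 RPM, against at most 1.778 RPM in the other 3 PM-OVA libraries. C5ar1 was 40.84 RPM in Sham replicate 4 (next 23.36) and 35.38 RPM in Sham-OVA replicate 4 (next 20.99). The ratio of C1qa to C1qb was 11.57 in Sham-OVA replicate 3 (next 3.739). Explanations of these values were not tested.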

How the results depend on the processing

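The 16 differences after OVA called by limma among the 9 genes kept their sign in all 391 alternative fits that gave an adjusted p, and 6 of these fell short of the threshold. With the replicate number as a block, C2 in Sham (0.80, adjusted p = 0.0683) and Cfb in PM offspring (0.76, adjusted p = 0.058) were among the latter, and 6 of the 9 genes were higher in each cohort instead of 7. Calls were also fewer over all 16795 genes, with 2908 higher in Sham and 2288 in PM offspring instead of 3453 and 3379. The replicate numbers are those of the sample titles, which differ from the numbers in the library names. The correlation of same-numbered samples was above 0.1 in every pair of no comparison (for PM-OVA and Sham-OVA 0.595, 0.22, 0.617 and -0.311), nor was it by the library names (-0.635, 0.285 and -0.162), so the block was not used as a pairing.

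At the threshold of the study applied to limma, 3 of the 9 genes were higher and 0 lower in Sham, and 1 higher and 0 lower in PM offspring, while of the other complement genes 3 and 2, and 1 and 0, were called, whereas with DESeq2 6 and 1 of the 9 passed in Sham and 7 and 0 in PM offspring. Of the 9, 2 were lower in PM offspring with array weights and 0 with DESeq2 (no adjusted p for C4b), with edgeR or without libraries under 6000000 reads, and 1 to 2 with 1 library left out. Of all 16795 genes, 8513, 5376, 5095 and 5258 were lower in PM offspring with array weights, DESeq2, edgeR and without libraries under 6000000 reads. Of the 37 other complement genes, 16 were higher in Sham and 10 higher and 9 lower in PM offspring with quantile normalisation. Of all genes, 5484, 5288 and 5445 were so called. With the trend with length and GC content removed, 10 of the 37 were higher in PM offspring, as were 4955 of 16535 genes. With DESeq2, edgeR and without libraries under 6000000 reads, 8, 9 and 8 of the 37 were lower there. The interaction was called for 3 of the 9 with array weights, where 27.5% of all genes were called.

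Differences that turned sign were uncalled before and after. C5ar1 in Sham offspring was at -0.040 with the block and from -0.074 to 0.27 with 1 library left out. For PM against Sham, C3 and Cfb were at -0.036 and -0.047 with array weights, and with 1 library left out C2 ranged from -0.22 to 0.089, C3 from -0.018 to 0.24 and Cfb from -0.035 to 0.16. For PM-OVA against Sham-OVA, C3ar1 was at 0.067 without libraries under 6000000 reads, and with 1 library left out it ranged from -0.49 to 0.049 and C4b from -0.34 to 1.26, the lowest without PM-OVA replicate 1. The interaction of C4b was -0.53 with array weights and from -0.67 (without PM-OVA replicate 1) to 0.94 with 1 library left out, and that of C2 was 0.0021 with edgeR and from -0.30 to 0.016 with 1 library left out. Without libraries under 6000000 reads, the log2 ratio of C1qa to C1qb differed by -0.48 between PM-OVA and Sham-OVA, that of Cfb to C2 by 0.16 after OVA in PM offspring and by 0.17 between PM-OVA and Sham-OVA, and that of C3ar1 to C5ar1 by 2.22 in PM offspring, no longer called with 2 PM-OVA libraries. With 1 library left out, the ratio of C1qa to C1qb ranged from -0.061 to 0.034 for PM against Sham, from 0.74 to 1.57 after OVA in PM offspring and from -0.26 to 0.56 for PM-OVA against Sham-OVA. The ratio of Cfb to C2 ranged from -0.15 to 0.098 after OVA in PM offspring and from -0.17 to 0.083 for PM-OVA against Sham-OVA, and that of C3ar1 to C5ar1 from 0.25 to 0.47 for PM against Sham. The causes of these changes were not tested.

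Depth limits the genes at low RPM in the 3 libraries with under 6000000 reads, where 3 reads are 0.398 to 0.932 RPM.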
